A study of Mus musculus with 8 samples.

Results

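Transcripts of 10 genes whose products restrain cytokine signaling through Janus kinases (JAK) and STAT transcription factors were examined in Tyk2-/- NK cells and CD8+ T cells of the mouse spleen. They were chosen by name, as 6 protein tyrosine phosphatases (Ptprc, Ptpn1, Ptpn2, Ptpn6, Ptpn11 and Ptpn22) and 4 PIAS genes (Pias1, Pias2, Pias3 and Pias4), out of 54232 gene IDs in the table of counts. Both groups came from C57BL/6 mice of 8 to 12 weeks of age carrying a Tyk2 knockout and kept without treatment, called homeostatic, with C57BL/6N as the background in the study's methods, so the knockout is shared by all cells described here. The knockout lines of the study carry the allele Tyk2tm1Biat, in some with a Cre transgene under the CMV promoter, and which of them gave a given library is not stated in the sources used here. Each library was made by Smart-seq2 from cells FACS-purified from 3 pooled spleens, with 3 libraries per cell type, named libraries 1 to 3 below. Libraries of WT CD8+ T cells are part of the series but were not analysed here, so the values compare 2 cell types of one genotype and no effect of TYK2 was tested.

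Cytokine receptors signal through receptor-bound JAKs, which phosphorylate tyrosines on the receptor, on each other and on STATs, and phosphorylated STATs dimerize and enter the nucleus. Protein tyrosine phosphatases remove these phosphates, some at the receptor and some in the nucleus, whereas SOCS proteins block the kinases or mark them for degradation. PIAS proteins (protein inhibitors of activated STAT) act in the nucleus, where they bind STATs and other transcription factors and serve as ligases that attach the small protein SUMO to their targets. In lymphocytes several of the phosphatases also set the threshold of antigen receptors and of NK cell receptors, through the Src family kinases Lck and Fyn.

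The total count on genes ranged over 20957384 to 26144478 for CD8+ T cells and over 32848432 to 38573550 for NK cells. Genes with a count numbered 12893 to 14042 in the CD8+ T cell libraries and 17224 to 17373 in the NK cell libraries. The targeted gene Tyk2 had raw counts of 105, 919 and 554 in the CD8+ T cell libraries against 3864, 4245 and 3207 in NK cells, and with no WT library beside them these counts do not check the genotype labels. The 8 CD8+ T cell markers summed to between 10761.7 and 11815.1 CPM (counts scaled to a common library total) in CD8+ T cells and to between 257.6 and 430.7 in NK cells, where Cd8b1 had 0 counts. The 8 NK cell markers summed to between 48319.8 and 57073.9 CPM in NK cells and to between 189.4 and 302.8 in CD8+ T cells, where Ncr1 had 0 counts. Of the 7 B cell markers, summed levels were 357.6, 189.2 and 37.2 CPM in CD8+ T cell libraries 1, 2 and 3 and between 7.32 and 56.5 in NK cells, with Pax5 at 0 in each CD8+ T cell library. The 7 myeloid markers summed to no more than 0.0948 CPM in any CD8+ T cell library and to no more than 1.15 in any NK cell library, and Adgre1, Cd14, Csf3r, S100a8 and Fcgr1 had 0 counts in all 6. The 3 CD4+ T cell markers summed to no more than 4.53 CPM and the 5 erythroid markers to no more than 2.98 in any library. The spread between libraries was wider in CD8+ T cells, with a common biological coefficient of variation (edgeR's estimate of the relative spread between replicates over genes) of 1.43 against 0.795 in NK cells.

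All 10 genes passed the filter, a mean normalised count of at least 10, and 3 of them differed between the cell types (edgeR's quasi-likelihood test, adjusted p below 0.05 over 14062 genes). Levels of Ptprc and Ptpn1 were higher in NK cells, whereas that of Pias1 was higher in CD8+ T cells. The same test called 11.4% of all genes, 6.24% in favour of NK cells and 5.14% in favour of CD8+ T cells, so the 3 calls describe these genes and nothing is read from their share. For 7 of the 10 there was no overlap between NK and CD8+ T cell libraries, with 5 higher in the former and 2 in the latter, where 41.6% of all genes did not overlap. The median log2 fold change, NK over CD8+ T cells, was 0.63 over the 10 genes and 0.1 over all genes tested. For each of these 7 an exact permutation test of the mean normalised count gave p = 0.1 (two-sided), which is the smallest that 3 libraries against 3 allow. In bulk libraries, fewer cells with a transcript and less transcript per cell cannot be told apart.

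**Figure D1:**
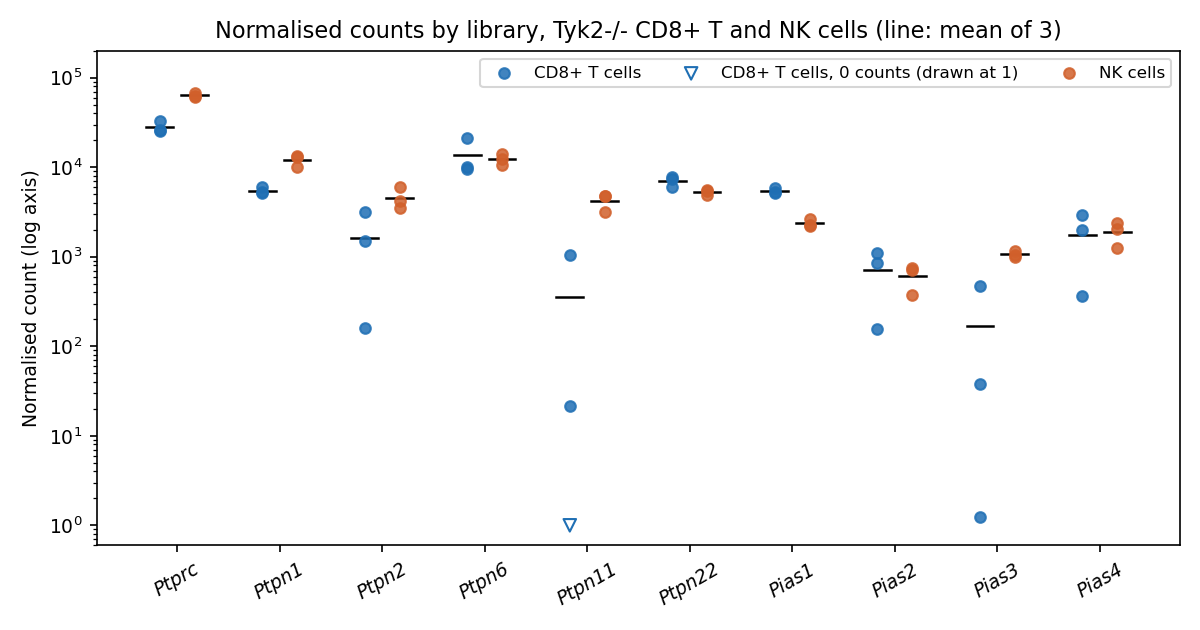
Normalised count (log axis) of each of the 10 genes in the 3 CD8+ T cell libraries (blue) and the 3 NK cell libraries (orange) of Tyk2-/- mice, with the mean of each group as a line and the CD8+ T cell library with 0 counts of Ptpn11 drawn as an open triangle at 1. The points of Ptprc, Ptpn1 and Pias1 lie close together within a cell type and apart between the cell types, while those of Ptpn11 and Pias3 spread widely in CD8+ T cells alone.

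Ptprc (ENSMUSG00000026395; GRCm38, chromosome 1, 138062861 to 138175708, minus strand) encodes CD45, the abundant receptor-type phosphatase of nucleated blood cells, which activates Lck by removing an inhibitory phosphate and can also dephosphorylate JAKs. It had raw counts of 26498, 21445 and 26072 in the CD8+ T cell libraries against 64979, 72512 and 74101 in NK cells. After TMM normalisation, which scales libraries so that most genes match, this was 27983.1 ± 3879.5 normalised counts (SD, n = 3) in CD8+ T cells against 63528.1 ± 2950.8 (SD, n = 3) in NK cells. No library of the NK cells fell below one of the CD8+ T cells, and the highest and lowest libraries of a cell type differed by no more than 1.27-fold in CPM. The log2 fold change was 1.18 ± 0.15 (SE; edgeR, adjusted p = 0.0053), and it kept its call with each of the 6 libraries left out in turn (1.12 to 1.31). The partner of CD45, the CD45-associated protein encoded by Ptprcap, was also higher in NK cells, with raw counts of 21719, 20319 and 33700 against 97198, 109064 and 104752 and a log2 fold change of 1.74 ± 0.15 (SE; edgeR, adjusted p = 0.0011).

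Ptpn1 (ENSMUSG00000027540; chromosome 2, 167932057 to 167979385, plus strand) encodes PTP1B, a phosphatase anchored to the endoplasmic reticulum that dephosphorylates JAK2 and TYK2 as well as the insulin receptor. Its raw counts were 4907, 4266 and 5391 in CD8+ T cells against 13215, 16123 and 11168 in NK cells. All NK cell libraries lay above the CD8+ T cell libraries, with 12134.8 ± 1842.6 normalised counts (SD, n = 3) against 5484.1 ± 450.0 (SD, n = 3). Its log2 fold change was 1.15 ± 0.19 (SE; edgeR, adjusted p = 0.014). The call was lost without NK cell library 1 (1.10, adjusted p = 0.086, edgeR) and without NK cell library 2 (1.06, adjusted p = 0.083, edgeR), where the size of the difference was nearly the same. Its close paralogue Ptpn2 (ENSMUSG00000024539; chromosome 18, 67665511 to 67724595, minus strand) encodes TC-PTP, which acts on JAK1, JAK3 and nuclear STATs. Raw counts of Ptpn2 were 2614, 1216 and 167 in CD8+ T cells against 4256, 4178 and 6740 in NK cells. CD8+ T cell library 3 was far below the other two, and each NK cell library was above all 3. With this spread the log2 fold change of 1.50 ± 0.91 (SE) did not pass the test (edgeR, adjusted p = 0.31), and it ran from 0.97 (without CD8+ T cell library 3) to 2.45 with 1 library left out.

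The SH2-domain phosphatases are Ptpn6 and Ptpn11. Ptpn6 (ENSMUSG00000004266; chromosome 6, 124720707 to 124738714, minus strand) encodes SHP-1, a phosphatase of blood cells that is recruited to the inhibitory receptors of NK and T cells. Its raw counts were 17532, 8294 and 9933 in CD8+ T cells against 14380, 14736 and 11675 in NK cells. The libraries overlapped, with 13744.6 ± 6679.1 normalised counts (SD, n = 3) in CD8+ T cells against 12277.3 ± 1749.3 (SD, n = 3) in NK cells. The log2 fold change was -0.16 ± 0.34 (SE; edgeR, adjusted p = 0.79) and its sign turned without CD8+ T cell library 1 (0.32, adjusted p = 0.3, edgeR). That library, the highest for Ptpn6, was also the highest of the CD8+ T cell libraries for B cell markers, with raw counts of 405, 6 and 0 for Ms4a1 and 347, 17 and 0 for Cd79a in libraries 1 to 3, and the part of these in the level of Ptpn6 was not tested. Other B cell markers did not set library 1 apart from library 2, with 4691, 3853 and 972 raw counts for Cd79b, 137, 111 and 0 for Blk and 1, 1 and 0 for Cd22. Exons of Ptpn6 overlap those of the antisense gene Gm20531 over 195 bases, and since it is not stated whether strand was used, reads of the 2 genes cannot be told apart there.

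Ptpn11 (ENSMUSG00000043733; chromosome 5, 121130533 to 121191397, minus strand) encodes SHP-2, a phosphatase found in most cells that carries growth factor signals to the Ras pathway and can also dephosphorylate STATs. It had 0, 845 and 22 raw counts in CD8+ T cell libraries 1 to 3 against 4902, 3794 and 5247 in NK cells. The 3 CD8+ T cell libraries thus ran from 0 to 845 reads, while the NK cell libraries stayed within 1.52-fold of each other in CPM. All NK cell libraries were above all CD8+ T cell libraries, yet the log2 fold change of 3.58 ± 1.94 (SE) did not pass the test (edgeR, adjusted p = 0.25). Without CD8+ T cell library 2, the one with the most reads, it was 8.60 ± 1.49 (SE; edgeR, adjusted p = 0.026) and was called. The other lymphocyte phosphatase, Ptpn22 (ENSMUSG00000027843; chromosome 3, 103859795 to 103912247, plus strand), encodes PEP, which works with the kinase Csk to switch off Lck and Zap70. Raw counts of Ptpn22 were 4926, 6093 and 7988 in CD8+ T cells against 4991, 6608 and 5963 in NK cells, and after normalisation the lowest CD8+ T cell library (6026.9) was above the highest NK cell library (5535.1). The log2 fold change of -0.43 ± 0.19 (SE) did not pass the test (edgeR, adjusted p = 0.19) and stayed below 0 with each library left out (-0.53 to -0.36).

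Pias1 (ENSMUSG00000032405; chromosome 9, 62878368 to 62987924, minus strand) encodes a PIAS protein known for limiting the contact of activated STATs with DNA. It had raw counts of 4232, 4721 and 5404 in the CD8+ T cell libraries against 2261, 2687 and 2923 in NK cells, where total counts were higher. Normalised counts were 5399.0 ± 339.5 (SD, n = 3) in CD8+ T cells against 2359.5 ± 233.7 (SD, n = 3) in NK cells. In CPM, the libraries of a cell type lay within 1.13-fold of each other. Its log2 fold change was -1.19 ± 0.21 (SE; edgeR, adjusted p = 0.018). Leaving out NK cell library 1, 2 or 3 ended the call, with log2 fold changes of -1.15, -1.16 and -1.28 (edgeR, adjusted p = 0.11, 0.1 and 0.081), while leaving out a CD8+ T cell library did not.

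The remaining PIAS genes did not pass the test. Pias3 (ENSMUSG00000028101; chromosome 3, 96696384 to 96706070, plus strand), named for its binding to STAT3, had 383, 1 and 39 raw counts in CD8+ T cells against 1063, 1387 and 1108 in NK cells. Each NK cell library was above each CD8+ T cell library, and CD8+ T cell library 2 was at or below the floor of 3 counts, where a gene was taken as not detectable. Its log2 fold change of 2.65 ± 1.63 (SE; edgeR, adjusted p = 0.31) ran from 2.10 to 5.78 with 1 library left out. Pias4 (ENSMUSG00000004934; chromosome 10, 81153266 to 81167923, minus strand), which encodes PIASy, had 2370, 295 and 2048 raw counts in CD8+ T cells against 2426, 1504 and 2265 in NK cells. CD8+ T cell library 2 was low and the other 2 overlapped the NK cell libraries (log2 fold change 0.11 ± 0.72 (SE), edgeR, adjusted p = 0.94). Pias2 (ENSMUSG00000025423; chromosome 18, 77065208 to 77153800, plus strand), which encodes PIASx, a partner of STAT4 and of the androgen receptor, had 904, 691 and 162 raw counts in CD8+ T cells against 730, 903 and 416 in NK cells. The libraries of the cell types overlapped for Pias2 (log2 fold change -0.20 ± 0.81 (SE), edgeR, adjusted p = 0.9), library 3 being the lowest in both. The signs of Pias2 and Pias4 turned in some of the fits with 1 library left out, so no direction is given for either.

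**Figure D2:**
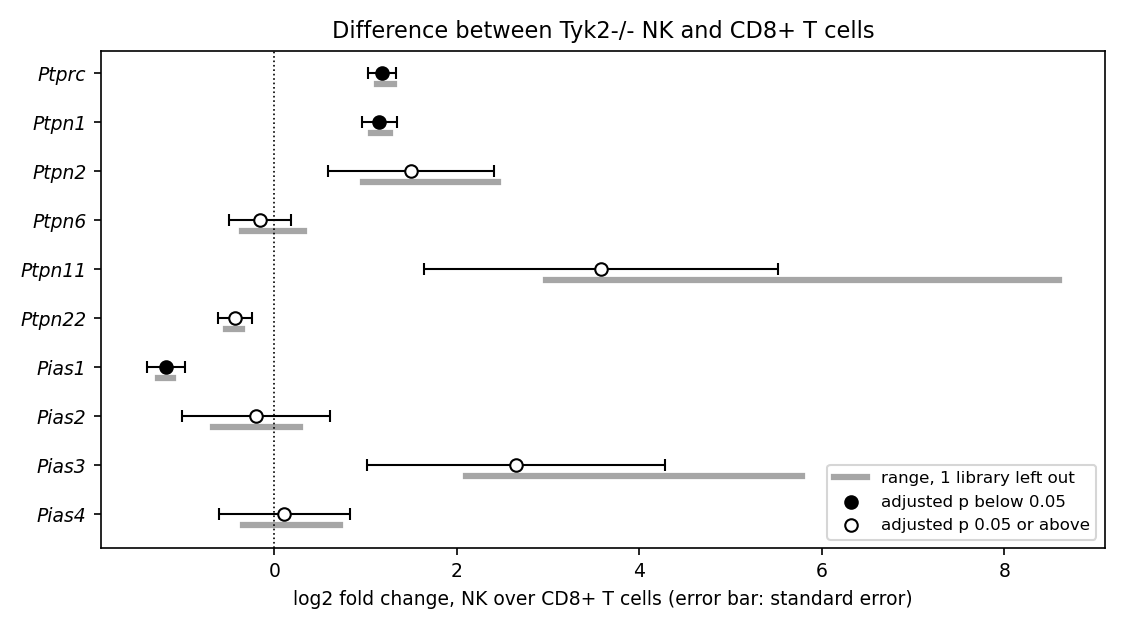
The log2 fold change of each of the 10 genes, NK over CD8+ T cells of Tyk2-/- mice, with its standard error (black) and the range of values with 1 library left out (grey bar). Filled points mark Ptprc, Ptpn1 and Pias1, the genes with an adjusted p below 0.05, whose grey bars are short, while that of Ptpn11 runs from 2.98 to 8.60.

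The genes fell apart in how much the libraries of a cell type differed. The range was taken as the highest over the lowest library in CPM, with counts under 3 set to 3, and a range of at least 5-fold was called wide, a limit set after the values were seen. In CD8+ T cells 5 of 10 genes had a wide range, namely Ptpn2 (19.5-fold), Ptpn11 (279.7-fold), Pias2 (6.96-fold), Pias3 (128.6-fold) and Pias4 (8.09-fold), and the values of Ptpn11 and Pias3 rest on the floor of 3 counts. In NK cells 0 of 10 had one, the widest being Pias2 with 2.11-fold. Among all genes tested 41.5% had a wide range in CD8+ T cells against 21.9% in NK cells. Among the 5770 genes whose mean normalised count lay within that of the 10 genes (616.6 to 45756), these shares were 23.0% and 1.99%. The median range over the 10 genes was 4.58-fold in CD8+ T cells and 1.4-fold in NK cells, against 2.4-fold and 1.46-fold over the 5770 genes.

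The low library was not the same for each gene. Library 1 of the CD8+ T cells had the lowest level of Ptpn11, library 2 that of Pias3 and Pias4, and library 3 that of Ptpn2 and Pias2. Of these 5 genes, CD8+ T cell library 1 reached the normalised count of the lowest NK cell library for Pias2 and Pias4. CD8+ T cell library 2 did so only for Pias2 (847.4 against 374.0) and library 3 only for Pias4 (1981.8 against 1259.8). The total counts of the CD8+ T cell libraries were lower than those of the NK cell libraries, and the part of depth in these ranges was not tested. Ptprc, Ptpn1, Ptpn22 and Pias1 had ranges of 1.11-fold to 1.3-fold in the same CD8+ T cell libraries.

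**Figure D3:**
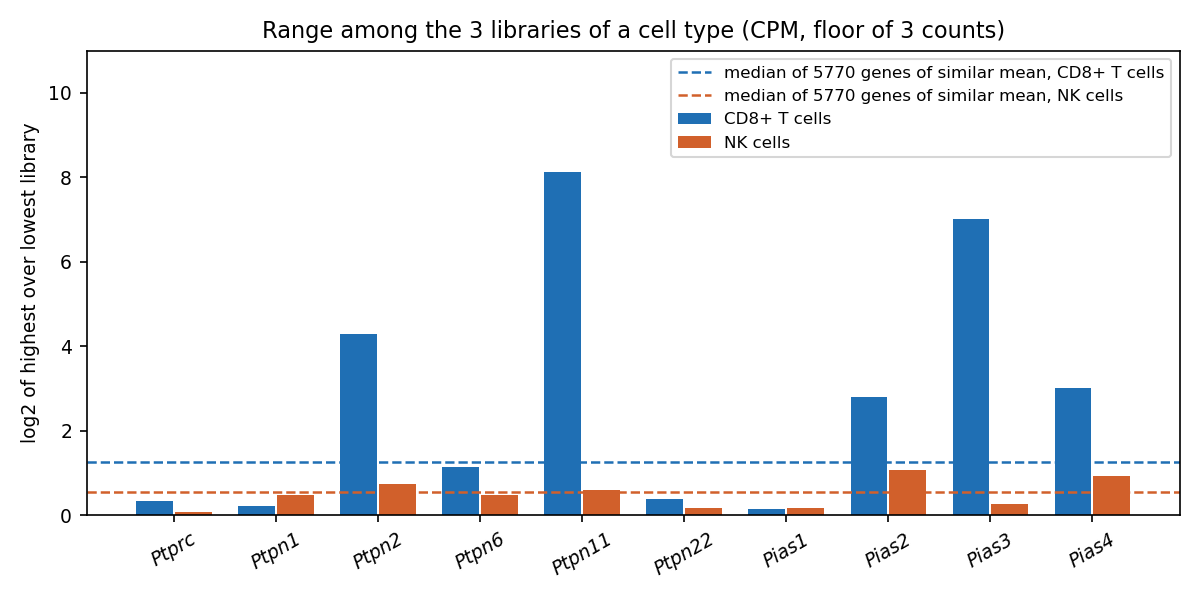
Range among the 3 libraries of a cell type as log2 of the highest over the lowest library in CPM (counts under 3 set to 3), for CD8+ T cells (blue) and NK cells (orange) of Tyk2-/- mice. Dashed lines give the median over 5770 genes of similar mean count, and the blue bars of Ptpn2, Ptpn11, Pias2, Pias3 and Pias4 rise far above theirs.

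Levels of different genes were compared as CPM per kilobase of exon. In CD8+ T cells Ptprc (213.4 ± 29.1, SD, n = 3) and Ptpn6 (205.9 ± 99.7, SD, n = 3) led and their libraries overlapped. They were followed by Ptpn22 (100.8 ± 13.4) and Ptpn1 (50.8 ± 4.13), each without overlap with its neighbours in the order. From Pias1 (33.0 ± 1.79) down through Pias4 (26.6 ± 19.6), Ptpn2 (20.8 ± 19.6), Pias2 (7.79 ± 5.42), Ptpn11 (2.43 ± 4.08) and Pias3 (2.15 ± 3.29), each gene overlapped the next, so the order of neighbours is not resolved. The lowest library of Pias1 (31.6) was above the highest of Pias2 (12.3), Ptpn11 (7.14) and Pias3 (5.94). With the length of the longest transcript in place of all exonic bases, Ptprc and Ptpn6 changed places in CD8+ T cells and no other rank moved in either cell type.

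In NK cells Ptprc stood alone at the top with 380.1 ± 11.2 (SD, n = 3) CPM per kilobase, above Ptpn6 (144.8 ± 24.2), Ptpn1 (88.5 ± 15.4) and Ptpn22 (58.6 ± 3.56), none of which overlapped the gene before it. Ptpn22 overlapped Ptpn2 (46.0 ± 12.2), Ptpn11 (23.0 ± 4.84) overlapped Pias4 (22.5 ± 6.84), and Pias1 (11.3 ± 0.803) overlapped Pias3 (10.6 ± 1.03), with Pias2 (5.38 ± 1.93) the lowest. Ptpn1 thus stood above Ptpn22 in NK cells and below it in CD8+ T cells. CD45 transcripts made up 49.9%, 50.4% and 53.7% of the summed level of the 6 phosphatases in the NK cell libraries against 32.9%, 37.5% and 38.7% in CD8+ T cells.

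**Figure D4:**
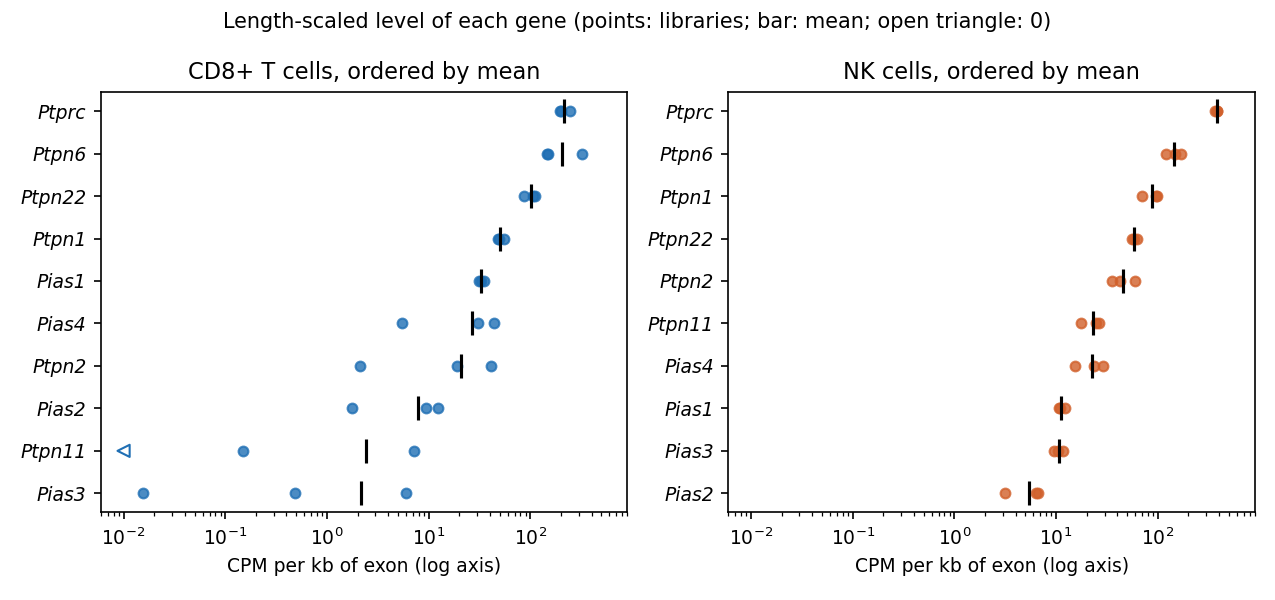
CPM per kilobase of exon (log axis) of the 10 genes in CD8+ T cells (left) and NK cells (right) of Tyk2-/- mice, ordered by the mean of the cell type, with a point for each library, a bar for the mean and an open triangle for 0. The lower genes scatter over several powers of 10 in CD8+ T cells and lie close together in NK cells.

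The make-up of the PIAS family was taken as shares of its summed level in each library. Pias1 made up 33.7%, 70.3% and 49.7% of the summed PIAS level per kilobase in the CD8+ T cell libraries against 19.1%, 24.6% and 25.2% in NK cells. Pias3 made up 6.33%, 0.0309% and 0.744% in CD8+ T cells against 18.7%, 26.3% and 19.8% in NK cells. The share of Pias4 overlapped, with 46.9%, 10.9% and 46.8% in CD8+ T cells against 51.0%, 34.1% and 48.5% in NK cells. Neither Pias1 nor Pias3 overlapped between the cell types in its share.

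Ratios within a library need no normalisation between libraries, and 4 were compared. The log2 ratio of raw counts of Pias1 to the sum of the other PIAS genes (0.5 counts added to each) was 0.21, 2.26 and 1.26 in CD8+ T cells against -0.90, -0.50 and -0.37 in NK cells. There were more Pias1 reads than reads of the other 3 in each CD8+ T cell library and fewer in each NK cell library, a difference in log2 ratio, NK minus CD8+ T cells, of -1.83. Reads were not scaled for gene length here, and Pias1 has more exonic bases (6386) than any other PIAS gene. The ratio is therefore read between cell types only, and its sign does not rank the levels of the genes. The log2 ratio of Ptpn22 to Ptprc was -2.43, -1.82 and -1.71 in CD8+ T cells against -3.70, -3.46 and -3.64 in NK cells, a difference of -1.61. That of Ptpn6 to Ptpn11 was 15.1, 3.29 and 8.79 in CD8+ T cells against 1.55, 1.96 and 1.15 in NK cells, a difference of -7.50, in which the first value rests on the added 0.5 counts. With 5 counts added in its place this difference was -6.31, and with 1 library left out it ran from -10.39 to -4.49. In none of these 3 ratios did NK and CD8+ T cell libraries overlap, and each had p = 0.1, the smallest possible (two-sided exact permutation test, adjusted p = 0.133 over the 4 ratios). The log2 ratio of Ptpn2 to Ptpn1 was -0.91, -1.81 and -5.01 in CD8+ T cells against -1.63, -1.95 and -0.73 in NK cells, with overlap (exact permutation test, p = 0.5, adjusted p = 0.5).

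**Figure D5:**
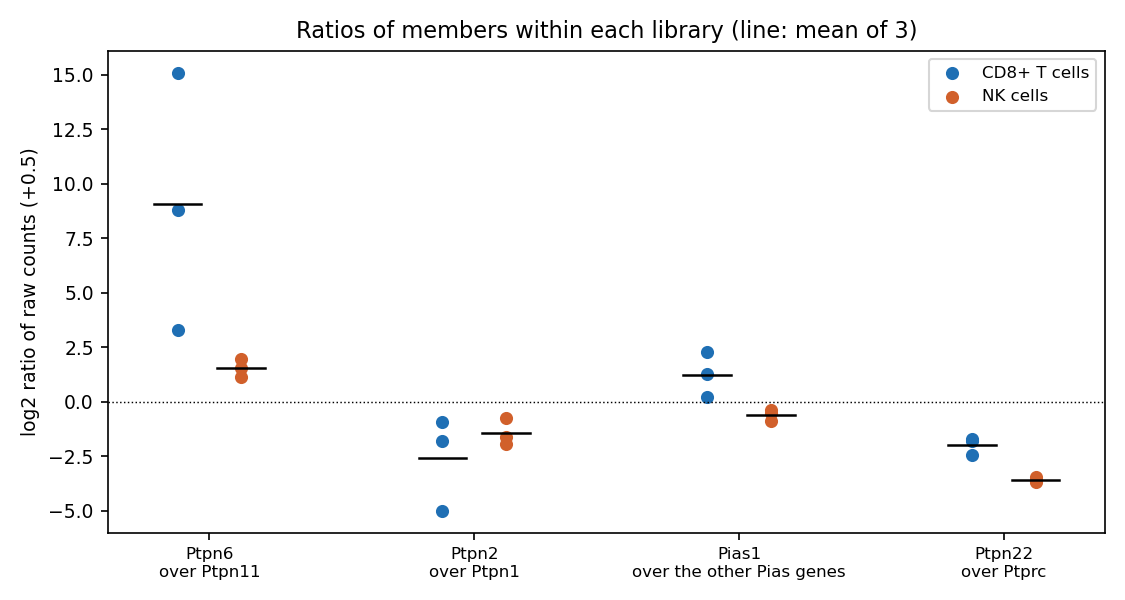
Log2 ratio of raw counts within each library (0.5 counts added) for 4 pairs, in CD8+ T cells (blue) and NK cells (orange) of Tyk2-/- mice, with the mean as a line. The ratio of Pias1 to the other PIAS genes lies above 0 in the 3 CD8+ T cell libraries and below 0 in the 3 NK cell libraries, and the ratio of Ptpn22 to Ptprc is lower in NK cells without overlap. Ratios are not scaled for gene length, so 0 does not mark equal levels.

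The other genes of the pathway are given beside these differences, where edgeR called 11.4% of all genes. Nothing is read from the share called in any of the lists. Of 13 genes of JAKs, STATs and their coactivators, all tested, 2 passed the test and the median log2 fold change was -0.39. Jak1, the kinase shared by interferon and common gamma chain receptors, was at a higher level in NK cells (log2 fold change 1.39 ± 0.20 (SE), edgeR, adjusted p = 0.01), as were Ptprc and Ptpn1. Its call was lost without NK cell library 1 or 3, with log2 fold changes from 1.25 to 1.60 over the 6 fits with 1 library left out and an adjusted p of up to 0.056 (edgeR). Of the 10 SOCS and adaptor genes, all tested, 1 passed the test and the median was 0.07. This was Socs2, a feedback inhibitor of growth hormone and cytokine receptors (edgeR, adjusted p = 0.012). It had 0 counts in each CD8+ T cell library and 534, 980 and 685 in the NK cell libraries. Socs2 thus passed the filter through NK cells alone. Leaving out any 1 of the NK cell libraries ended its call (edgeR, adjusted p of up to 0.088). With the floor of 3 counts in place of each 0, its NK cell level was 191-fold higher, which covers counting error only. In the same CD8+ T cell libraries Ptpn11 ran from 0 to 845 raw counts, so a 0 there sets no firm bound.

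Of 32 other classical protein tyrosine phosphatases 14 were tested and 1 passed, where edgeR called 11.4% of all genes, and the median log2 fold change was 1.27. The gene was Ptpn18, a phosphatase of the PEST family, with 4243, 4356 and 6579 raw counts in CD8+ T cells against 30464, 33233 and 34910 in NK cells (log2 fold change 2.39 ± 0.16 (SE), edgeR, adjusted p = 0.00059). This log2 fold change was larger than those of Ptprc, Ptpn1 and Pias1 and kept its call with each library left out (2.35 to 2.49). Of the 14, 3 (Ptprj, Ptprk and Ptprv) had 0 counts in every CD8+ T cell library and passed the filter through NK cells alone, so nothing is read from the median.

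All 18 genes of the SUMO pathway, in which PIAS proteins act as ligases, were tested, with a median log2 fold change of -0.17. The test called 11.4% of all genes, 5.14% in favour of CD8+ T cells, and nothing is read from the share of this list. Of the 18, 3 passed, each higher in CD8+ T cells as Pias1 was. Among them was Uba2, which encodes a subunit of the activating enzyme (-1.53 ± 0.23 (SE), edgeR, adjusted p = 0.0097), with 4897, 4016 and 4743 raw counts in CD8+ T cells against 1870, 2219 and 1874 in NK cells. DESeq2 called 5 genes of this list, 2 of them higher in NK cells, and each of the 3 calls of edgeR was lost without NK cell library 1, 2 or 3, that of Uba2 at an adjusted p of up to 0.069, while its log2 fold change stayed between -1.61 and -1.41 over the 6 fits with 1 library left out.

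Of the 19 partners and substrates of CD45, SHP-1 and PEP 17 were tested and 5 passed, where edgeR called 11.4% of all genes. Of the 5, 4 were in favour of NK cells and 1 in favour of CD8+ T cells, and the median was 0.35. Syk, Gab2 and Cd22 passed the filter through NK cells alone, and Cd5 through CD8+ T cells alone. Nothing is therefore read from these counts or the median. Besides Ptprcap, the genes higher in NK cells were the kinase gene Syk, the adaptor gene Gab2 and Cd22, an inhibitory receptor best known from B cells. Syk and Gab2 had 0 counts in each CD8+ T cell library. With the floor of 3 counts in place of each 0, their NK cell levels were 416-fold and 127-fold higher, which covers counting error only. As for Socs2, a 0 in these CD8+ T cell libraries sets no firm bound. The calls of Gab2 and Cd22 were lost without NK cell library 1, 2 or 3 (edgeR, adjusted p of up to 0.12), while those of Ptprcap, Syk and Cd5 held with each library left out. Cd22 had 345, 364 and 266 raw counts in NK cells, where of the other B cell markers Ms4a1 had 0, 2 and 0 and Cd79b had 263, 1813 and 2. The gene higher in CD8+ T cells was Cd5, a T cell receptor inhibitor, with 1458, 760 and 2304 raw counts against 0, 0 and 2. The kinase genes on which CD45 and PEP act, Lck (-0.10 ± 0.17 (SE), edgeR, adjusted p = 0.74) and Zap70 (-0.05 ± 0.21 (SE), edgeR, adjusted p = 0.91), did not pass the test.

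For each called gene the 3 genes nearest to it over the 6 libraries were taken by the Euclidean distance of centred log2 normalised counts, as a description. For Ptprc they were Get4, Ndufb7 and Hnrnpab (distances of 0.242 to 0.247), and for Ptpn1 they were Gm9800, Smap1 and Dpm2 (0.204 to 0.311). For Pias1 they were Ndufs1, Dpm3 and Ndufa7 (0.088 to 0.192). None of these 9 is another member of the pathway lists.

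Sequence upstream of the start sites was read in the table of RefSeq windows used here (GRCm38.p6), where 7 of the 10 genes matched with 10 windows of 250 bases. Windows of Ptpn2, Pias2 and Pias4 were not used here. The windows of Ptprc, Ptpn1 and Pias1 are shown because these genes differed between the cell types, and that of a second start of Ptpn22 because it was the only one with a STAT motif. Each of the 4 belongs to a RefSeq start that lies inside the GENCODE gene, downstream of its outermost end. The windows lie at chr1:138175306-138175555 (minus strand) for Ptprc, chr2:167932077-167932326 (plus strand) for Ptpn1, chr9:62980880-62981129 (minus strand) for Pias1 and chr3:103860027-103860276 (plus strand) for Ptpn22. Capitals mark matches to GGAA or its reverse TTCC, the core bound by ETS factors, and in Ptpn22 the STAT motif TTCNNNGAA, called GAS.
Ptprc: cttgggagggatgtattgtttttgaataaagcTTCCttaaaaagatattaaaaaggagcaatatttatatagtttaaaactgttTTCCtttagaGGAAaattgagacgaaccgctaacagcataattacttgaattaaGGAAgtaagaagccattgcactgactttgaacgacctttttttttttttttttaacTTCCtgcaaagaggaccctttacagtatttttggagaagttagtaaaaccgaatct
Ptpn1: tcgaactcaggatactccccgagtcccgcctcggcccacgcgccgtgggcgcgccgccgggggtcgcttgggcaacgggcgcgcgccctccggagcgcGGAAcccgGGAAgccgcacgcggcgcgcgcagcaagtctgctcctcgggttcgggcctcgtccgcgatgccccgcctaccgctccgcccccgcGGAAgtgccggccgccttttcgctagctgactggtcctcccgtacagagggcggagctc
Pias1: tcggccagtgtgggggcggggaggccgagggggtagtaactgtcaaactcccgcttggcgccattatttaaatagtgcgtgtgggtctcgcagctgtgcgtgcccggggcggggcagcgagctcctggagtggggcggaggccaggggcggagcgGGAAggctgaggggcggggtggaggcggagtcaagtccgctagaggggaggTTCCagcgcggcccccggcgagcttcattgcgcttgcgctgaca
Ptpn22: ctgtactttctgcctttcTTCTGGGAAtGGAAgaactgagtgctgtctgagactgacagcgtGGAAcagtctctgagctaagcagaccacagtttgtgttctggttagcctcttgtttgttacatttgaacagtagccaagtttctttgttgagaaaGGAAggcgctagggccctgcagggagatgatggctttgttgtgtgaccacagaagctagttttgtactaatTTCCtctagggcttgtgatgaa

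The window shown for Ptprc was poor in G and C (31.6%) and holds 5 matches to GGAA or TTCC, while that of Ptpn1 was rich in them (75.2%) and holds 3, and that of Pias1 (68.8%) holds 2. A second window of Ptprc, not shown, has 36.8% G and C and 2 matches. The median over the 32851 mouse windows was 52.4%. Each of the 10 windows holds the ETS core on one strand or the other, as do 93.4% of all windows, so its presence sets none of these genes apart. The GAS motif begins 232 bases before the second start of Ptpn22, shares letters with a GGAA, and is found in 1 of the 10 windows and in 7.02% of all. A pair of half-sites of the interferon-stimulated response element, GAAANNGAAA on either strand, is in 0 of the 10 windows and in 2.98% of all. A match is a run of letters only, and no binding was measured here.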

How the data were processed

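RNA of FACS-purified splenic NK and CD8+ T cells was amplified by Smart-seq2. The authors used Trimmomatic 0.32 for trimming and STAR 2.7.1 for alignment to mm10, counted uniquely aligned reads in exons of a GENCODE Basic annotation of GRCm38 in R 3.2.3, and deposited raw counts. Reads with several alignments were left out by the authors, and strand use in counting is not given in the sources used here. Of 104 columns of values 6 were used and 98 were not. The comparison with WT CD8+ T cells was not run, because 3 columns carry that label against 2 samples and their names do not tell which belong.

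Counts were analysed with edgeR 4.0.16 in R 4.3.3 (TMM factors, a mean normalised count of at least 10, quasi-likelihood test with robust estimation, Benjamini-Hochberg adjustment over 14062 genes, called below 0.05). The standard error is the absolute log2 fold change over the root of the F statistic. The fit was tested on simulated data, with a pass mark set only at a spread far below that of these libraries. How well it finds differences at the spread of these libraries is not given here. Labels name separate samples, so p-values measure the spread between these pooled libraries, which may be partly technical. Floors of 3 counts cover counting error only. Length-scaled levels used all exonic bases of GENCODE GRCm38. The text names the 10 genes in every comparison and, of each pathway list, up to 4 called genes with the largest absolute log2 fold change. Lck, Zap70, Ptprj, Ptprk and Ptprv were named after their values were seen. A few called genes of the lists are left out of the text. Members and lists were chosen with earlier results of these data known. Alternatives were RLE normalisation, DESeq2 1.42.0, no filter, leaving out each library, an added count of 5 in ratios, the longest transcript as length and, chosen after seeing the data, other limits for a wide range. Other tests used Python 3.11.15 with scipy 1.17.1.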

Additional observations from a re-analysis of the deposited data

How the results depend on the processing

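With RLE normalisation, DESeq2 or no filter on low counts, the same 3 of the 10 genes (Ptprc, Ptpn1 and Pias1) were called and each of the 10 log2 fold changes kept its direction. DESeq2 called 3729 genes in all against 1600, and 2 SOCS and adaptor genes, 6 genes of JAKs, STATs and coactivators, 4 other phosphatases and 5 SUMO pathway genes. RLE normalisation called 2 other phosphatases. The cause of these moves was not tested. With 1 library left out, which leaves fewer samples, 476 to 1946 genes and 1 to 4 of the 10 genes were called, with 0 to 2 SOCS and adaptor genes, 0 to 4 of JAKs, STATs and coactivators, 1 to 2 other phosphatases, 0 to 5 of the SUMO pathway and 3 to 8 partners. The low counts (482, 485 and 476 genes) came without NK cell library 1, 2 and 3. The log2 fold change ran from 1.06 to 1.27 for Ptpn1, from 2.98 to 8.60 for Ptpn11 and from -1.28 to -1.11 for Pias1. It turned for Ptpn6 (-0.35 to 0.32), Pias2 (-0.67 to 0.28, also 0.06 without NK cell library 3) and Pias4 (-0.34 to 0.72, also -0.08 without NK cell library 1), and the difference in log2 ratio of Ptpn2 to Ptpn1 ran from -0.08 to 1.97. An added count of 5 and the other gene length changed no direction. With a limit of 3-fold or 10-fold for a wide range, 5 or 3 of the 10 genes had one in CD8+ T cells, against 0 in NK cells. Of all genes tested, 52.4% or 32.9% had one in CD8+ T cells and 31.8% or 14.8% in NK cells. The counts of 5 and 3 in CD8+ T cells are thus near the share of all genes. No paired analysis was run, because the NK and CD8+ T cell samples share no replicate number and the running numbers of the columns do not match those of the samples. Whether NK and CD8+ T cell libraries came from the same pools of spleens is not stated in the sources used here, so the 2 groups may not be independent. The fit against WT samples, which do share numbers, was not run. With 3 libraries per cell type and the spread of the CD8+ T cells, Ptpn11 at 0, 845 and 22 raw counts in CD8+ T cells was not called.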
